A study of Rattus norvegicus with 125 samples.

Results

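The S3 segment is the last stretch of the proximal tubule, the part of the nephron that receives the filtrate first. Its profile is described here from all 7 libraries that the submitters titled S3 proximal tubule, of 125 samples in the series, and is compared with the 98 libraries of the other 13 tubule segments and, more closely, with its neighbours S1 and S2 (7 libraries each). The other segments were the descending thin limb of short loops (10 libraries) and the outer medullary (9) and inner medullary (4) descending limb of long loops, the thin ascending limb (7), the medullary (7) and cortical (7) thick ascending limb, the distal convoluted tubule (8), the connecting tubule (6), and the collecting duct of the cortex (11), outer medulla (7) and inner medulla (8). All segments came from adult male Sprague-Dawley rats of 200 to 250 g on ordinary chow, with no treatment or altered allele in any group. The left kidney was perfused and digested with collagenase, for 25 minutes for cortex, 50 for outer medulla and 90 for inner medulla, and tubules were dissected by hand. The labels do not say whether the libraries of a segment came from separate rats, so the p-values measure only the spread between libraries. For each gene that spread was shared by all 14 segments and is not that of the 7 S3 libraries alone. Where a gene varied more within S3 than within the other segments, its SE and p-value are too small. Digestion time cannot be told apart from the region a segment lies in.

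The early proximal tubule reclaims most filtered glucose, amino acids and phosphate with carriers of high capacity, and the straight S3 part takes up what is left and secretes organic anions and cations. S3 cells have a tall brush border with peptidases, many peroxisomes, glutathione-making enzymes and monooxygenases of the cytochrome P450 family. In the rat several S3 carriers and enzymes depend on sex hormones, and all animals here were male.

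Among the genes that were higher in S3 than in each other segment, described further on, promoter sequences from RefSeq (assembly GRCr8, 250 bases before to 50 after the start, gene strand) were matched by symbol for 19 of 20. These windows were searched on both strands for GTTAAT followed by any 1 base (N) and ATT (AAT, N and ATTAAC on the other strand), letters of a site known from promoters of liver and kidney genes, and for its core GTTAAT alone, which overlaps it. The longer motif was found in 112 of 33469 promoters (0.335%), and among the 19 in Gc and Slc7a12. The core was found in 7.45% of all promoters and in 4 of the 19 (Gc, Slc22a24, Slc7a12 and Ust5r). The Gc window lies at chr14:18916005-18916304 on the plus strand with the longer motif 194 bases before the start, and the Slc7a12 window at chr2:88868054-88868353 on the minus strand with the motif 88 bases before the start. Both are shown because the letters sit in promoters of genes that set S3 apart, with the motif in capitals; a match of letters is not a measured binding site.
Gc: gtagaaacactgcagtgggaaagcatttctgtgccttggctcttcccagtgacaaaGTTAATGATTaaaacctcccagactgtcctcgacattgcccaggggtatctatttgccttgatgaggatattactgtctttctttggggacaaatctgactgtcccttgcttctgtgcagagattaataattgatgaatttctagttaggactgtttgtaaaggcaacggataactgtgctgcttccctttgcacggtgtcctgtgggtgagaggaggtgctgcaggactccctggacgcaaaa
Slc7a12: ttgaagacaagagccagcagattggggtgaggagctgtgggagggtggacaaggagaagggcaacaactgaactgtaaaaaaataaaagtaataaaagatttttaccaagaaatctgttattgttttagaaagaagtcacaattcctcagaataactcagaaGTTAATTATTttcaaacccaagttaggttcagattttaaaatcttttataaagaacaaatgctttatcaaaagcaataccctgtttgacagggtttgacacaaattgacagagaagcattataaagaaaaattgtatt

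Values are RPKM (reads of a transcript divided by its length in kilobases and by the size of the library), which allows levels of different genes to be set side by side. The 7 S3 libraries held 2594 to 5467 genes at 1 RPKM or more (median 3850), against 1438 to 8574 (median 4757) in the other 98. No read counts were given, so counting intervals are unknown. S3 levels are mostly given as range and median, and those of S2 and S1 as mean ± SD. These are unlike measures, because a few high libraries raise a mean above the median. The tested differences compare means of log2(RPKM + 1) in both groups. The mean S3 profile correlated best with that of S2 (Pearson r = 0.9216 across genes, which are not independent replicates) and then with S1 (0.886). S3 replicate 5 and S3 replicate 7 stood apart. Replicate 7 correlated with the other S3 libraries at a median of 0.549 and was nearest to a short-loop thin limb library (0.623), whereas the other 6 had medians of 0.626 to 0.745. It held 43137 RPKM of Spp1 and 3606 of the water channel Aqp1, and 0 of Gc, Pck1 and Tmem27, but 572 of Slc7a13. Replicate 5 held genes that were otherwise near 0 in S3, among them 354 RPKM of the basolateral amino acid carrier Slc7a7 and 65.8 of the distal salt carrier Slc12a3. Uromodulin (Umod) was at 449 RPKM there and ran from 0 to 48.1 in the other S3 libraries. The main counts, and the calls named below that moved, are given without them too. S3 replicate 3 was nearest to an S2 library (0.895), above its correlation with any other S3 library (at most 0.814).

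Marker lists of other cells were summed per library. Of the 11 thin limb markers the S3 sums ran from 483 to 10912 RPKM (median 1803, against 594 in the other 98), mostly through the small heat shock protein Cryab and through Aqp1, which proximal cells also express. Sums of thick ascending limb markers ran from 3.52 to 567 (median 33.3, against 214), those of distal and connecting tubule from 0.588 to 71.1 (15.0, against 53.4), those of principal cells from 23.8 to 87.4 (68.1, against 131) and those of intercalated cells from 41.5 to 1017 (252, against 398). Blood and stromal markers were present as well. Leukocyte markers summed to 32.1 to 1145 RPKM (207, against 159), with the pan-leukocyte gene Ptprc at or below 0.0589, fibroblast and smooth muscle markers to 2.40 to 103 (22.5, against 6.80), erythroid markers to 0.0742 to 619 (10.1, against 6.68) and endothelial markers to 0.794 to 64.8 (14.8, against 39.2). Podocyte markers reached 20.8 in replicate 5 and had a median of 0.119. Among the defining markers, Slc5a12 (at most 0.00923), Slc4a4 (0.0257), Foxi1 (0.124) and Aqp3 (0.671) were at or near 0 in S3. Other defining markers were present in S3 libraries, up to 52.1 RPKM for Slc5a2 (replicate 7), 449 for Umod (replicate 5), 37.2 for Aqp2 and 5.73 for Atp6v1g3 (both replicate 1) and 642 for Cd74 (replicate 6). The part of such cells in the results was not tested.

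**Figure D1:**
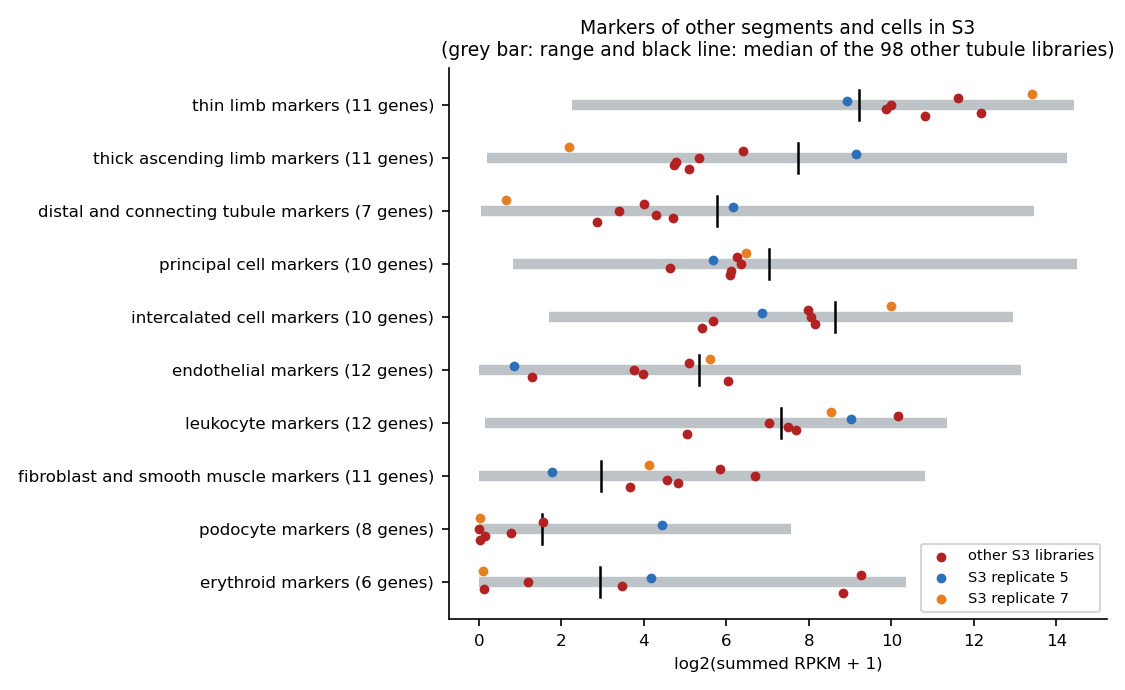
Summed RPKM of 10 marker lists of other cells, on a log2(sum + 1) axis. Points are the 7 S3 libraries, with replicate 5 in blue and replicate 7 in orange, grey bars the range and black lines the median of the 98 other tubule libraries. Replicate 7 holds the highest thin limb sum (10912) and replicate 5 the highest podocyte sum (20.8).

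Of the 3 marker genes, Slc7a13 was detected in all 7 S3 libraries and Gc and Slc22a13 in 5 each. Slc7a13, a brush border carrier of cystine and acidic amino acids, ran from 475 to 3519 RPKM in S3 with a median of 780. All 7 libraries were far above S1 (30.7 ± 77.7, SD, n = 7), and 1 of the 98 other libraries, an S2 library with 784, reached the S3 range. In limma's fit of log2(RPKM + 1) over all 14 segments Slc7a13 was 8.44 log2 units (SE 0.74) above the mean of the other 13 (adjusted p = 1.68e-17). Its S2 mean was 222 ± 268, and the difference from S2 of 3.78 (adjusted p = 0.0378) was lost on leaving out S3 replicate 1, 2, 4 or 6 (largest adjusted p = 0.123). As in every bulk comparison below, fewer cells of a type and less RNA per cell cannot be told apart.

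Gc encodes the vitamin D-binding protein of plasma. It ran from 0 to 376 RPKM with a median of 33.0 and was listed at 0 in S3 replicates 1 and 7. Only 1 other tubule library, an outer medullary thin limb with 101, exceeded the S3 median. The difference from the other 13 segments was 4.13 (SE 0.42, adjusted p = 2.45e-14). That from S2, where the mean was 0.294, was 4.03 (adjusted p = 2.37e-07), a call lost when S3 and S2 were fitted alone. The SD of Gc was 136 RPKM in S3, 33.6 in the outer medullary long-loop thin limb and 0.771 in S2. The spread shared by all segments therefore understates that within S3, and the SE and p-values of Gc are too small. Slc22a13, an organic anion and urate carrier of the apical membrane, ran from 0 to 47.4 RPKM with a median of 10.8. It was listed at 0 in S3 replicates 5 and 7, and no other library exceeded the S3 median. Its difference was 2.52 (SE 0.27, adjusted p = 2.26e-13) from the other 13 and 2.06 (adjusted p = 7.64e-05) from S2.

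**Figure D2:**
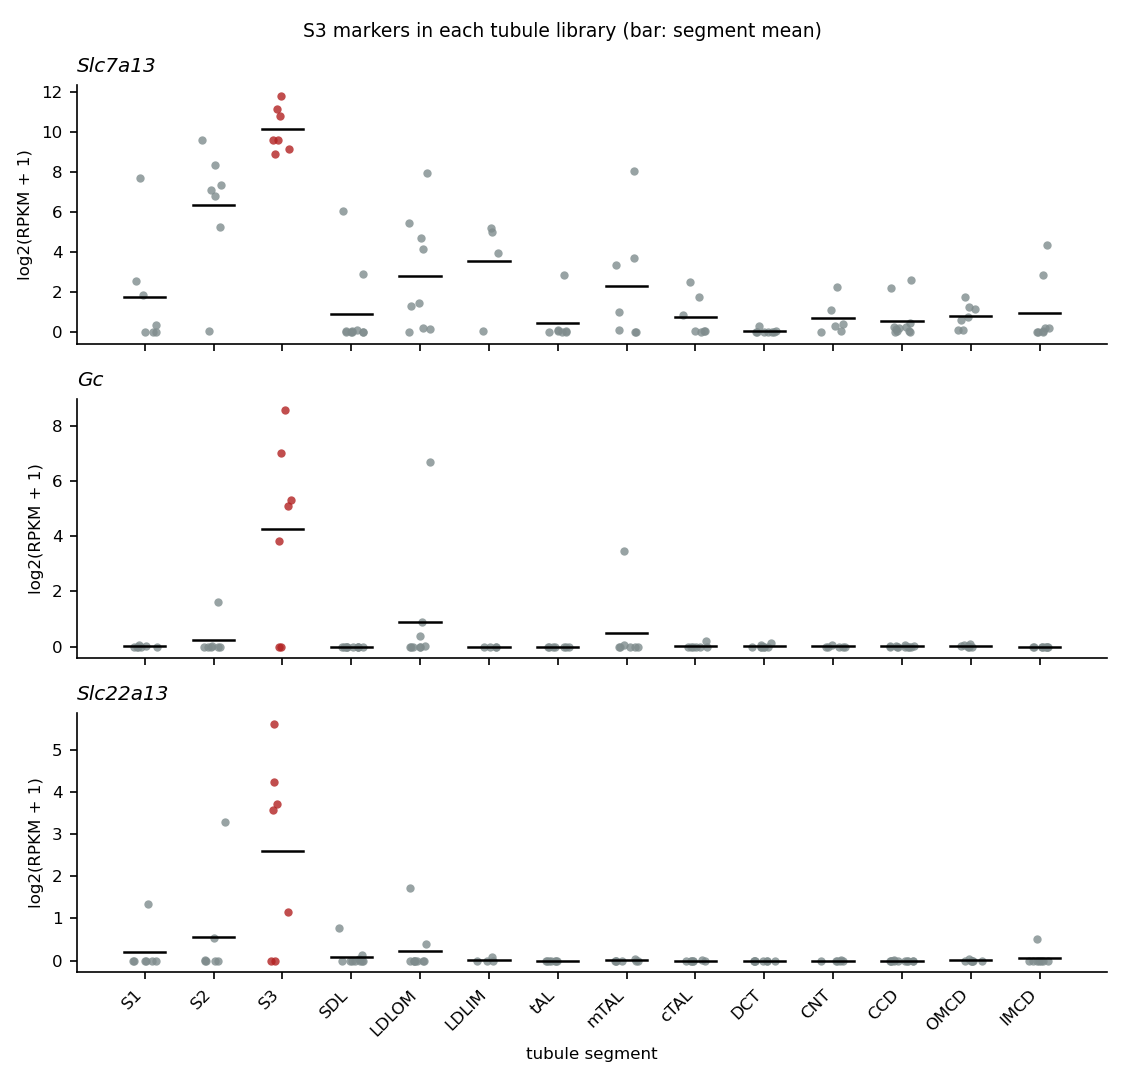
log2(RPKM + 1) of Slc7a13, Gc and Slc22a13 in the 7 S3 and 98 other tubule libraries by segment. Each point is 1 library, bars are segment means and S3 is red. SDL is the descending thin limb of short loops, LDLOM and LDLIM that of long loops in outer and inner medulla, tAL, mTAL and cTAL the thin, medullary thick and cortical thick ascending limb, DCT the distal convoluted and CNT the connecting tubule, and CCD, OMCD and IMCD the cortical, outer and inner medullary collecting duct. All 7 S3 libraries hold Slc7a13 at 475 RPKM or more, whereas Gc and Slc22a13 are at 0 in 2 S3 libraries each.

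Across 11078 genes tested, S3 was higher than the mean of the other 13 segments for 405 (3.66% of those tested) and lower for 222 (2.00%), at an adjusted p under 0.05 and a difference of at least 1 on the log2 scale. No gene of either kind was free of overlap between the S3 and the other 98 libraries. The median gene lay 0.41 log2 units below the other segments, beside the smaller number of genes detected in S3. The share of called genes that were higher was 64.6%. It was 78.2% after quantile normalization (median gene -0.12) and 73.9% with the number of detected genes as a covariate (-0.22). Without S3 replicates 5 and 7 it was 75.8%, and in a fit of S3 against the other libraries as 1 group 83.6%. Without libraries under 2500 genes it was 44.1% (-0.52). The balance of higher to lower thus differed between these fits, and the causes were not tested. The fit without replicates 5 and 7 called 561 genes in place of 627, of which 467 were shared.

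A stricter rule asked for a mean above that of each of the 13 segments by at least 1, with the largest of the 13 adjusted p-values under 0.05. It was met by 20 genes (0.181% of those tested), and the S3 values chose them, so their levels, differences and p-values are a description. Their SEs and p-values also rest on the spread shared by all 14 segments, which is too small for genes that varied mainly within S3. Between 12 and 27 genes met it on leaving out 1 S3 library (12 without replicate 6), and 39 without both replicates 5 and 7. With the largest p-values adjusted over genes 13 remained, and Apoh, Cyp2d5, Fbxo36, Gcm1, Rasal3, Slc2a5 and Slc7a13 were lost. The call against the pool of 13 follows largely from the rule and is not separate evidence. It held in every fit in which the gene was tested. Apoh was too low to be tested without S3 replicate 3, 4 or 6, Fam25a without replicate 1, 2 or 6, and Cacng5 in the deposited table without polyadenylation-site data. Of the 20, 16 met the rule there, and Cacng5, Cyp2d5, Gcm1 and Slc22a24 did not. The closest segment was S2 for most of them and another for 6, among them the cortical thick ascending limb for Rasal3 and Fbxo36, the short-loop thin limb for Gcm1 and the cortical collecting duct for Kif20b.

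Of the 20, 7 were transporters, including Slc7a13 and Slc22a13 described above. Slc7a12, an amino acid carrier and relative of Slc7a13, ran from 0 to 55.4 RPKM (median 9.02) and was higher than the other 13 by 2.91 (SE 0.23, adjusted p = 4.14e-20). Its highest value in any other library was 3.75, below 4 of the 7 S3 libraries. Slc22a24, of the organic anion carrier family, was detected in all 7, from 1.87 to 22.2 RPKM with a median of 8.15, and was higher by 2.98 (adjusted p = 2.89e-22), although 1 S2 library held 26.5. Ust5r, an integral membrane transporter of the same family, ran from 0 to 242 (median 21.9, S2 mean 4.52), and Slc22a7, which carries organic anions and nucleotides, from 0 to 18.2 (median 2.53, S2 mean 0.866). The fructose carrier Slc2a5 ran from 0 to 113 with a median of 4.88 and an S2 mean of 3.55. Reads of the Slc22a24 and Ust5r group, and of the Slc7a12 and Slc7a13 pair, could be split between near copies.

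Enzymes and other genes made up the rest. Cyp2d1, a drug-metabolising P450, was present in all 7 S3 libraries from 10.6 to 113 RPKM (median 29.5), against 7.29 ± 10.2 in S2 and 0.620 ± 1.23 in S1. No other library exceeded the S3 median, and the difference from the other 13 was 4.74 (SE 0.35, adjusted p = 6.45e-22). Its near copy Cyp2d5 ran from 0.801 to 15.2, with which reads may be shared. Cyp21a1, the steroid 21-hydroxylase, was split among S3 libraries, with 9.28 to 60.0 RPKM in replicates 2, 3, 4 and 6 and at most 0.250 in replicates 1, 5 and 7.

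Tgfbi, a secreted matrix protein, ran from 0.0238 to 88.5 RPKM with a median of 21.7, and was lowest in replicate 7. Cacng5, of the calcium channel gamma and AMPA receptor regulator family, ran from 0 to 86.0 (median 28.5) and exceeded the other 13 by 4.14 (adjusted p = 8.31e-21). Its S3 mean was 35.7 RPKM here and 0.32 in the table without polyadenylation-site data, so the value rests on those data. Gcm1, a transcription factor best known from placenta, ran from 0 to 126 (median 7.78), with a mean of 33.9 here and 7.59 in that table. Some selective genes rested on few libraries. Apoh, a plasma apolipoprotein, was listed at 0 in 4 of 7 and reached 104 in replicate 6, Kif20b, a mitotic kinesin, lay at 24.3 to 43.7 in 3 libraries and at most 0.0172 in 4, and Fam25a exceeded 3 RPKM in 2 libraries only.

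**Figure D3:**
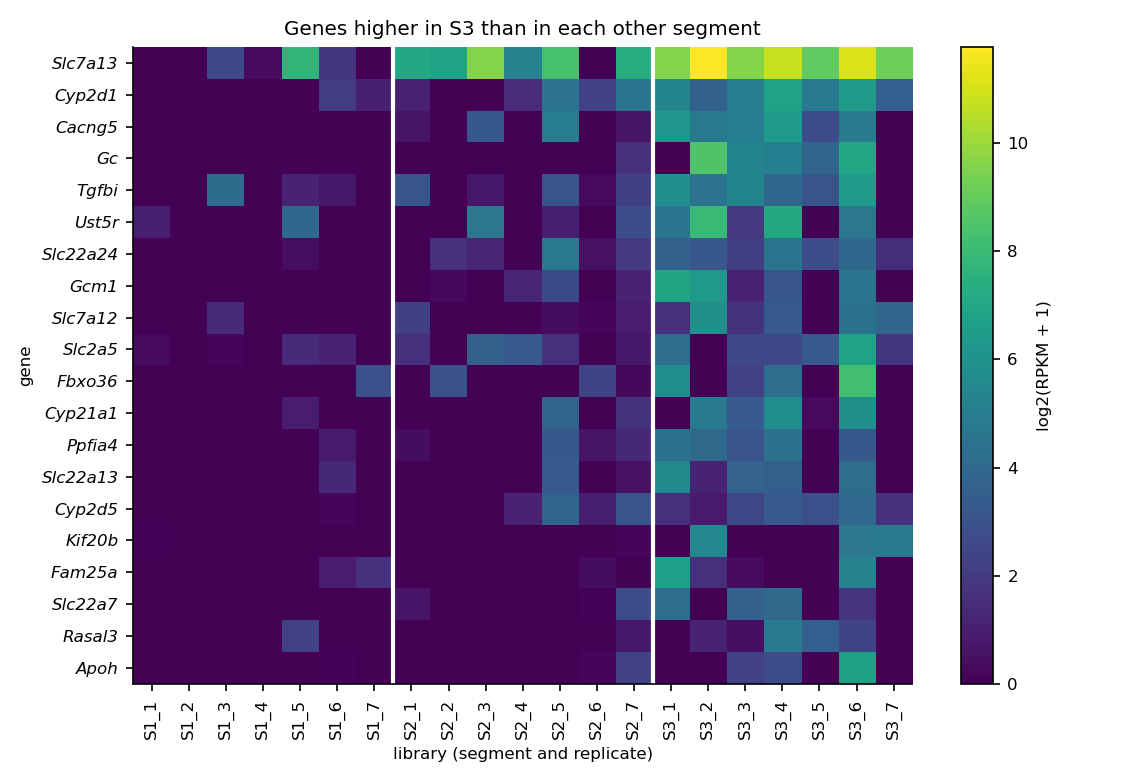
log2(RPKM + 1) of the 20 genes that met the strict rule in the 7 S1, 7 S2 and 7 S3 libraries, coded by colour. The S3 columns are brighter than S1 and S2 by the choice of genes; Slc7a13, Cyp2d1 and Slc22a24 are detected in all 7, and others such as Apoh and Kif20b in a few.

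The largest differences from the pool of 13 were shared with S2. Tff3, a secreted trefoil peptide of mucosal surfaces, ran from 752 to 10520 RPKM in S3 (median 2659), against 1186 ± 2093 in S2 and 10.8 ± 14.8 in S1. It exceeded the other 13 by 9.47 (SE 0.80, adjusted p = 1.4e-18) and S1 by 8.92, while the difference from S2 of 3.11 missed the threshold (adjusted p = 0.289). Kap, the androgen-regulated kidney protein and the most abundant of these, ran from 4066 to 35854 (median 13282), with 8893 ± 6700 in S2 and 3275 ± 3612 in S1. Ppic, a cyclophilin, ran from 272 to 1627 (median 718), and Apom, an apolipoprotein that carries sphingosine 1-phosphate, from 128 to 3128 (median 1311). Dhrs7, a short-chain dehydrogenase, ran from 43.9 to 890 (median 331), with a single other library above that median. Of the 10 largest increases Slc7a13 alone passed the threshold against S2 as well, and for Dhrs7 the adjusted p was 0.108.

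Gene lists were read against these backgrounds; they and their members were drawn up with earlier results of the same data known. Of the members of all lists that were called against the pool (146), 129 kept the call without S3 replicates 5 and 7 and 117 did so in each of the 7 fits without 1 S3 library. Against S2 these numbers were 23 and 19 of 25, and against S1 58 and 46 of 60. Of the late proximal transporters 16 were tested and 11 were higher in S3 than in the other 13 segments, with none lower and a median difference of 2.37, against -0.41 over all genes. Slc3a1, the partner subunit of cystine carriers, ran from 69.7 to 859 RPKM (median 710), with 185 ± 141 in S2 and 77.8 ± 63.1 in S1. Slc6a18, a neutral amino acid carrier, ran from 78.4 to 1107 (median 297) and was higher than the 13 by 6.06 (adjusted p = 8.57e-10). Slc17a3, an organic anion and urate carrier, ran from 8.49 to 309 (median 104) and differed by 5.43 (adjusted p = 9.08e-18).

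Other late carriers behaved differently. Slc23a1, which takes up vitamin C, ran from 2.35 to 124 (median 31.8) and differed from S1 by 2.94 (adjusted p = 0.00489) but not detectably from S2 (1.67, adjusted p = 0.641). Slc5a1, the high-affinity sodium-glucose carrier SGLT1, was at 0 in 6 S3 libraries and at 0.0535 in the other, and its highest value in any of the 98 others was 6.34. The early carrier for the same task, Slc5a2 (SGLT2), was at most 0.612 in 5 S3 libraries, and at 25.0 in replicate 5 and 52.1 in replicate 7.

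Against S2, 4 of the 16 late transporters were higher (0.226% of all genes) and 2 lower (0.659%). The higher ones were Slc7a13, Slc22a7, Slc22a13 and Slc2a5, all members of the strict set; 1 remained without S3 replicate 1 and 2 without replicate 4 or 6. The lower ones, named after their values were seen, were Slc17a1, with a median of 11.3 RPKM in S3 and a mean of 120 ± 118 in S2 (-3.27, adjusted p = 0.000671), and Slc5a8, a lactate and monocarboxylate carrier, with 0.431 against 9.81 ± 13.4 (-1.88, adjusted p = 0.000183). Against S1, 8 were higher (0.966% of all genes) and none lower (0.912%).

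Early proximal transporters divided. Of 21 tested, 7 were higher in S3 than in the pool of 13 and none lower (median 0.13), 4 were lower and none higher than in S2 (median -1.43, against -0.11 over all genes), and 8 were lower and 2 higher than in S1 (median -0.95, against -0.02 over all genes). Slc4a4, the basolateral sodium bicarbonate carrier, was at most 0.0257 RPKM in S3, below all S2 (23.1 ± 25.7) and all S1 (20.3 ± 31.5) libraries, a difference of -3.68 from S2 (adjusted p = 2.42e-07). Slc6a19, the main neutral amino acid carrier, was at most 0.666 against 7.28 ± 7.04 in S2 and 47.1 ± 68.6 in S1. Slc5a12, a lactate carrier, was at most 0.00923 and differed from S1 (16.1 ± 11.2) by -3.58 (adjusted p = 1.23e-09).

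Some other early carriers were higher in S3 than in the pool of 13, whether or not they were lower than in S2 or S1. Slc13a3, a dicarboxylate carrier, had a median of 16.9 RPKM and was above the pool of 13 (2.79, adjusted p = 8.29e-07) yet below S2 (170 ± 161; -3.01, adjusted p = 0.000967). Slc34a1, the main phosphate carrier, ran from 64.1 to 1635 (median 215), with 1945 ± 2131 in S2 and 1504 ± 2115 in S1, and neither difference passed the threshold. Slc38a3, a glutamine carrier, went the other way, from 41.7 to 651 (median 174) in S3 against 1.78 ± 4.12 in S1, with every S3 library above every S1 library (6.78, adjusted p = 2.08e-09). The S1 difference of Slc5a2 (-3.77, adjusted p = 0.0313) was lost without any of replicates 1, 2, 3, 4 or 6, and that of Slc7a7 was -6.16 (adjusted p = 2.87e-06) although replicate 5 held 354 RPKM, and -7.36 without replicates 5 and 7.

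**Figure D4:**
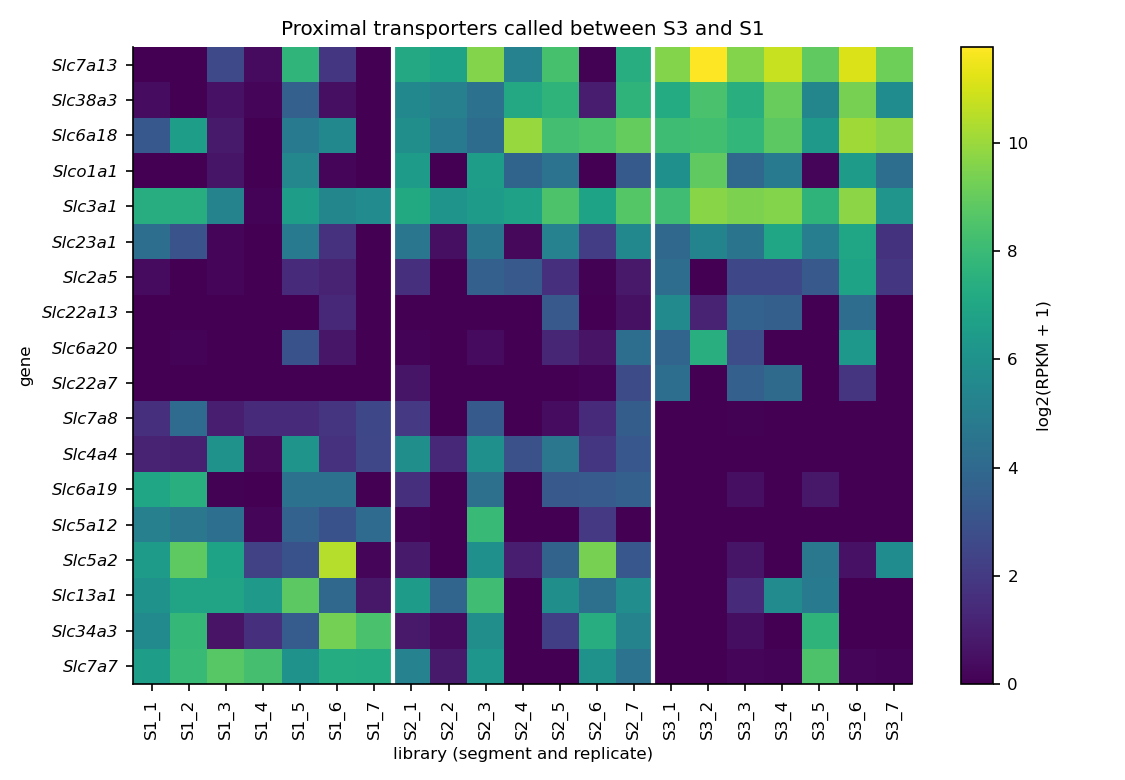
log2(RPKM + 1) of the 18 early or late proximal transporters called between S3 and S1, 10 higher in S3 and 8 lower, in the 7 S1, 7 S2 and 7 S3 libraries. S2 lies between for many of them, and S3 replicate 5 carries Slc7a7 (354 RPKM) and Slc34a3 (204 RPKM), which are near 0 in the other 6.

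Organic ion transporters showed the same division. Of 15 tested (20 in the table), 8 were higher than in the pool of 13 and none lower (median 1.86). Slc22a2, the basolateral organic cation carrier OCT2, ran from 7.99 to 671 RPKM (median 294) and was lowest in replicates 5 and 7, against 22.5 ± 20.8 in S1 (3.83, adjusted p = 0.000188). Slco1a6, an organic anion carrier, ran from 39.9 to 555 (median 385) and differed from the 13 by 6.87 (adjusted p = 5.05e-18) and from S1, with 10.2 ± 26.6, by 6.69. Slc22a12, the urate carrier, ran from 3.17 to 303 (median 120), again with replicates 5 and 7 lowest.

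Against S2, 2 of the 15 were lower. Slc22a8 (OAT3), a basolateral carrier, had a median of 0.728 and reached 107 in replicate 5, against 268 ± 278 in S2 (-4.23, adjusted p = 0.000254) and 199 ± 284 in S1. Without replicates 5 and 7 the S2 difference was -4.60. Its partner Slc22a6 (OAT1), with a median of 19.8 in S3 and 164 ± 170 in S2, did not pass (-2.12, adjusted p = 0.273). None of the 15 was above S2, and 2 were without replicates 5 and 7.

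Endocytosis and brush border genes had a median of 3.19 against the pool. Of 24 tested, 18 were higher in S3 and none lower, none differed from S2 at the threshold, and 7 were higher and 1 lower than in S1. Ggt1, the glutathione-degrading gamma-glutamyltransferase, ran from 109 in replicate 7 to 4968 RPKM (median 1394) and exceeded S1, at 83.1 ± 73.1, by 4.89 (adjusted p = 0.00137). Anpep, aminopeptidase N, ran from 7.72 to 534 (median 141) against 9.72 ± 21.1 in S1 (4.92, adjusted p = 9.96e-05). Mep1b, the meprin beta subunit, ran from 0 to 404 (median 78.9) against 1.86 ± 4.63 in S1 (4.76, adjusted p = 3.64e-07).

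The receptors of protein uptake showed no such step along the proximal tubule. Lrp2 (megalin) had a median of 15.3 RPKM in S3 and means of 30.3 ± 27.9 in S2 and 16.2 ± 15.5 in S1, and its difference from S1 was 1.22 (adjusted p = 0.773). Cubn (cubilin) had a median of 8.86, with 8.21 ± 8.02 in S2. Their adaptor Dab2 was the 1 gene below S1 (-3.92, adjusted p = 0.0116), with a median of 3.41 in S3 and 142 ± 166 in S1, a call lost without replicate 1, 2 or 6. The peptidases Ace and Dpep1 were at most 0.0420 and 0.172 in S3.

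Glutathione and conjugation genes followed. Of 31 tested (35 in the table), 16 were higher than in the pool and none lower (median 2.43), 8 were higher and 1 lower than in S1, and 2 were lower than in S2. Gclc, the catalytic subunit of the first enzyme of glutathione synthesis, ran from 147 to 2778 RPKM (median 635) against 56.3 ± 130 in S1 (6.84, adjusted p = 6.07e-06). Gclm, its modifier subunit, ran from 54.0 to 1175 (median 478), and Gss, the second enzyme, from 69.6 to 872 (median 593) against 39.8 ± 34.7 in S1. The 3 subunits and enzymes of synthesis and the degrading Ggt1 were thus each higher in S3 than in S1, and none of the 4 differed from S2 at the threshold (adjusted p = 0.969 for Gss and 1 for the others). Glyat, which conjugates glycine, ran from 1.80 in replicate 7 to 2827 (median 666), with 1556 ± 1262 in S2 and 1685 ± 1256 in S1. The 2 genes below S2, named after their values were seen, were Gpx1 and Acsm3, and both calls were lost on leaving out any of 3 S3 libraries.

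Of 21 cytochrome P450 genes tested (31 in the table), 9 were higher than in the pool and none lower (median 0.72), and 3 exceeded S1, a count of 5 without replicate 7 and 6 without replicates 5 and 7. Cyp4a8, a fatty acid hydroxylase, ran from 143 to 1602 RPKM (median 788) and exceeded S1, at 88.3 ± 102, by 3.93 (adjusted p = 0.00533). Cyp4a2 of the same subfamily ran from 59.8 to 761 (median 281) and exceeded S1, at 32.5 ± 43.4, by 4.36 (adjusted p = 6.07e-06), and the near copies among the Cyp4a genes may share reads. Against S2, 1 was higher (Cyp2d1) and 2 were lower. The lower ones were Cyp24a1, which inactivates vitamin D hormone, at most 1.62 in S3 against 20.5 ± 22.5 in S2 (-3.00, adjusted p = 2.57e-10), and Cyp4a1, with a median of 1.01 against 90.5 ± 95.5 (-3.67, adjusted p = 2.44e-05).

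Peroxisome and fatty acid oxidation genes stood out less. Of 25 tested, 6 were higher than in the pool and none lower (median 0.36), and none differed from S1 or S2. Hao2, the peroxisomal hydroxyacid oxidase, ran from 751 to 10706 RPKM (median 4402) with 3775 ± 2905 in S2 and 2551 ± 3020 in S1. Cat, catalase, ran from 109 to 1409 (median 368) and differed from the 13 by 3.79 (adjusted p = 0.000122). Acaa1a and Acaa1b, near copies, lost their calls without replicate 2, 4, 5 or 6 and without replicates 5 and 7, which leaves 4 in the last fit. The mitochondrial members did not pass, for example Acadm with 55.2 to 977 RPKM (1.13, adjusted p = 0.368), and of 21 oxidative phosphorylation genes none passed in any comparison (median 0.31).

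Gluconeogenic and creatine genes were high in S3 relative to the pool, but not relative to the earlier proximal tubule. Of 12 tested, 6 were higher and 1 lower than in the pool (median 3.00), while 2 were lower and none higher than in S2, and likewise than in S1. Fbp1, fructose-bisphosphatase, ran from 68.7 to 969 RPKM (median 126) with 496 ± 525 in S2, and Pck1, the first committed enzyme, from 0 in replicate 7 to 493 (median 186) with 968 ± 1297 in S2 (-2.06, adjusted p = 0.531). G6pc, which releases free glucose, had a median of 3.67 in S3 against 156 ± 264 in S2 (-3.43, adjusted p = 0.00721) and 121 ± 119 in S1 (-4.19, adjusted p = 0.000103). Gatm, the first enzyme of creatine synthesis, ran from 0 to 397 (median 67.7) against 1815 ± 1959 in S2 (-4.05, adjusted p = 0.00129), and without replicates 5 and 7 the S2 difference was -2.88 (adjusted p = 0.101). Of 15 glycolysis genes 2 were lower and none higher (median -0.92), and both calls were fragile: Pfkp lost its call without any single S3 library, and Pgam1 without replicate 5.

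Of 26 amino acid enzymes tested, 19 were higher than in the pool and 1 lower (median 2.82). Aadat, a kynurenine and aminoadipate transaminase, ran from 564 to 4903 RPKM (median 2152) against 802 ± 739 in S2 and 228 ± 535 in S1 (5.88, adjusted p = 0.000323). Haao, of the kynurenine path to NAD, ran from 60.6 to 1271 (median 437) and differed from the 13 by 6.72 (adjusted p = 2.38e-14). Agxt2, which uses dimethylarginines and beta-aminoisobutyrate, ran from 22.2 in replicate 7 to 775 (median 390).

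Fewer members of that list differed within the proximal tubule. Against S2, 1 was lower and none higher. Against S1, 4 were higher (Aadat, Agmat, Cth and Odc1) and 2 lower, among them Gldc of the glycine cleavage system, at most 0.00911 RPKM in S3 against 5.15 ± 7.30 (-1.95, adjusted p = 0.00621). Of these, Agmat, Cth and Odc1, named after their values were seen, each lost the call without replicate 2 or 4, which left 1 gene above S1, whereas 8 were above it without replicates 5 and 7. Sat1, which acetylates polyamines for export, was below the pool, with a median of 1.13 RPKM and 88.5 in replicate 5 (-4.08, adjusted p = 9.05e-05, and -4.65 without replicates 5 and 7).

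**Figure D5:**
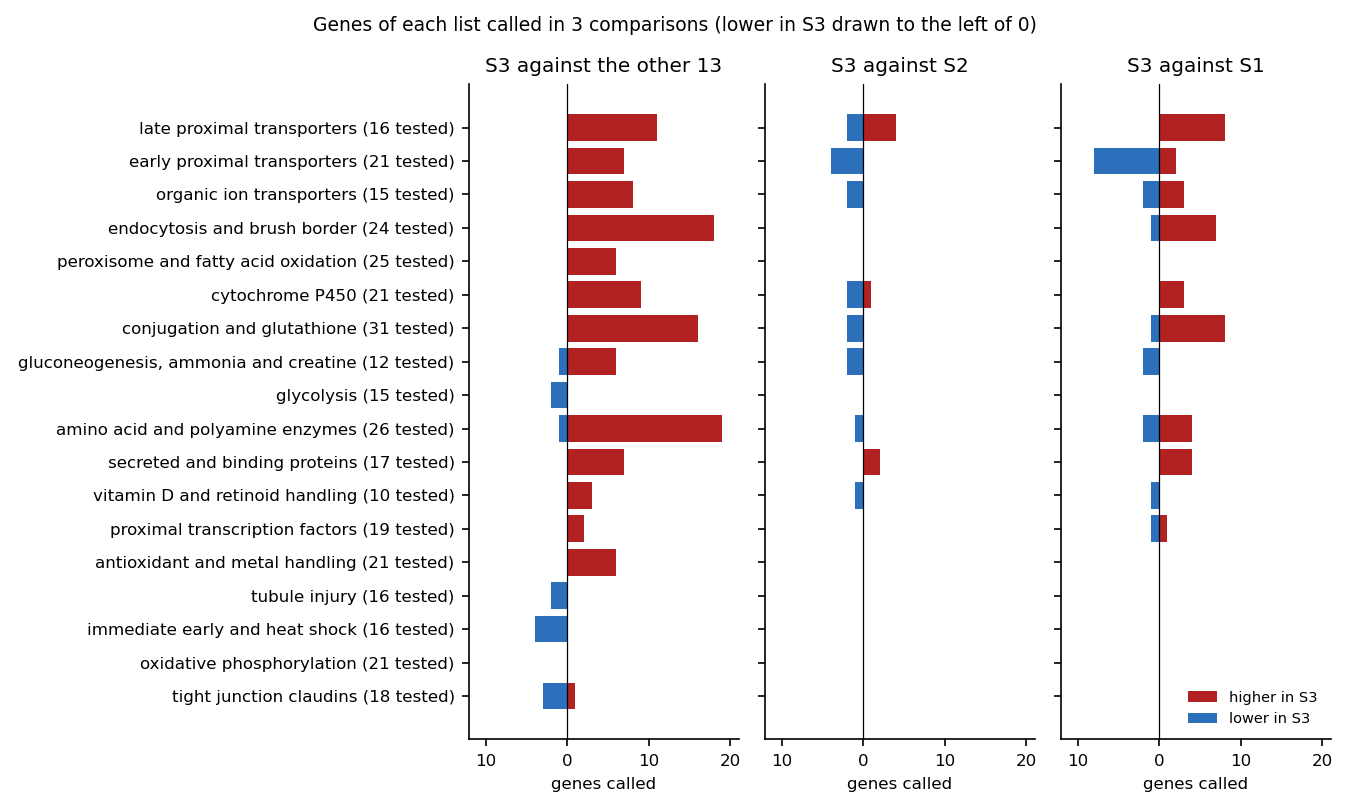
Number of genes of each of 18 lists called higher in S3 (red, right) or lower (blue, left), against the other 13 segments, S2 and S1. Over all genes 3.66% were higher and 2.00% lower than the 13, 0.226% and 0.659% against S2, and 0.966% and 0.912% against S1.

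Of 17 secreted and binding proteins tested, 7 were higher than in the pool and none lower (median 1.23), a count of 4 without replicate 4 or 6. Serpinf2, alpha-2-antiplasmin, ran from 27.5 to 290 RPKM (median 96.8) with 130 ± 140 in S2 and 29.3 ± 44.3 in S1 (3.31, adjusted p = 8.78e-05). Rbp4, the plasma retinol carrier, ran from 0 to 170 (median 10.7) and exceeded S1, at 0.363 ± 0.909, by 3.34 (adjusted p = 3.55e-05). Gc and Apoh were the 2 above S2. Apoh was too low to be tested without replicate 3, 4 or 6. It entered the test only through those S3 libraries, so its call is a description.

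Of 10 vitamin D and retinoid genes, 3 were higher than in the pool (median -0.24). Aldh8a1, a retinal dehydrogenase, ran from 7.71 to 62.0 RPKM (median 20.5; 3.75, adjusted p = 1.95e-13). Aldh1a1, which makes retinoic acid, was the 1 gene below S2, with a median of 2.51 in S3 and 546 in replicate 5, against 473 ± 364 in S2 (-5.37, adjusted p = 0.000734, and -5.93 without replicates 5 and 7). Against S1, 1 was lower, and without replicate 5 the list had 2 genes below S2 and 3 below S1.

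Among proximal transcription factors 19 of 27 were tested and 2 were higher than in the pool. Hnf4a, a master regulator of proximal identity, ran from 0 to 73.3 RPKM (median 42.2; 3.34, adjusted p = 3.98e-10), with 44.3 ± 51.2 in S2. Prlr, the prolactin receptor, counted in this list with the regulators, ran from 0 to 307 (median 30.1) and exceeded S1, at 2.53 ± 5.64, by 3.51 (adjusted p = 1.16e-05). Maf was the 1 gene below S1 (-2.88, adjusted p = 0.0298), a call lost without any of 5 S3 libraries.

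Antioxidant genes included 6 of 21 above the pool and none below (median 0.87). Sod1, the cytosolic superoxide dismutase, ran from 503 to 9195 RPKM (median 2141; 2.38, adjusted p = 0.000114), and the extracellular Sod3 from 18.4 to 367 (median 112; 4.65, adjusted p = 1.51e-07). Claudins set the paracellular path. Of 18 tested, Cldn2, the pore claudin of the proximal tubule, was the 1 higher. It ran from 7.96 to 366 RPKM (median 31.6) and differed by 3.39 (adjusted p = 7.93e-05). Cldn4, Cldn8 and Cldn19 were lower. The Cldn19 call was lost without replicate 3 or 6, after quantile normalization and with the other libraries as 1 group.

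The 10 genes furthest below the pool had their highest segment means in the thin limbs or the collecting duct. Sostdc1, a BMP and Wnt inhibitor, was at most 1.81 RPKM in S3 (median 0.660) against a mean of 731 in the outer medullary collecting duct (-5.00 from the pool, SE 0.78, adjusted p = 2.33e-07). Muc1, an apical mucin, was at most 0.730 against 660 in the inner medullary collecting duct (-4.40, adjusted p = 1.24e-06), and Mal2, a sorting protein, at most 1.34 against 335 in the outer medullary collecting duct (-4.06, adjusted p = 1.77e-05). Replicate 7 departed from this pattern. Mal had 392 RPKM there and 102 in replicate 6, against at most 6.89 in the other 5, and S100a11 and Fabp3 had 729 and 1733 there against at most 41.2 and 57.6. All 10 kept the call in every fit tried. Muc1 and Mal2 were low in S2 and S1 too, with means of 0.668 and 1.43 for Muc1 and 0.684 and 0.365 for Mal2, and the S1 mean of Sostdc1 was 6.67. Fabp3, a fatty acid-binding protein, was not low there, with means of 77.6 ± 112 in S2 and 205 ± 127 in S1. In S3 it had a median of 2.86 and reached 1733 in replicate 7, above both means. It was below S1 in S3 (-3.58, adjusted p = 0.0218), a call lost without replicate 1, 2, 3 or 4 (largest adjusted p = 0.123), and without replicates 5 and 7 the difference was -5.38. Sat1 had an S1 mean of 47.5 ± 56.7.

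Stress and injury lists were read next. Of 16 injury genes none was higher and 2 were lower than in the pool (Cd24 and Lgals3), a count of 4 without replicate 7, which held 1225 RPKM of Cd24 against at most 38.0 in the other 6. Havcr1 (KIM-1), the usual marker of proximal injury, was at most 0.00839 and too low to be tested. Of 16 immediate early and heat shock genes none was higher and 4 were lower (median -1.93), a count of 2 without replicate 4 or 5. Egr1 lay at 0.310 to 1.56 RPKM in 6 libraries and at 39.4 in replicate 7 (-3.74, adjusted p = 5.39e-05). No member of either list was called against S1 or S2. The injury list had a median of 0.69 against S2 and 0.77 against S1, and the immediate early list 0.64 and 0.95, where all genes had -0.11 and -0.02. Anxa2, an annexin of the injury list named after its values were seen, differed by 3.13 from S2 (adjusted p = 0.177) and 3.32 from S1 (adjusted p = 0.0618). It passed against both with a pseudocount of 0.1, when the number of detected genes was a covariate, and after quantile normalization. Without replicate 5 it also passed against both (3.76 and 3.95, adjusted p = 0.0409 and 0.0132). Against S1 only, it passed with the replicate number as a block, without libraries under 2500 genes, and without replicate 2 or 3. No injury gene passed against either neighbour without replicate 1, 4, 6 or 7, or without replicates 5 and 7 together.

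Against S2 alone, 25 genes were higher and 73 lower in S3, of 11078 tested. Among the called genes, 6 lower ones showed no overlap, including Marc1, Slc4a4, Fkbp1a and Nabp1, and no higher one was free of overlap. Overlap was counted among called genes only. The share without overlap over all genes tested was not computed, so nothing is read from these numbers. Cryab, a small heat shock protein abundant in the medulla, was the largest increase, from 150 to 6816 RPKM (median 1686) against 185 ± 230 in S2 (4.46, adjusted p = 0.000808), and its mean in the thin ascending limb was 7225. Its difference from S1, at 5.61 ± 9.22, was 9.01 (adjusted p = 1.46e-13), with no overlap. Without replicates 5 and 7, 46 genes were higher than in S2, and without replicate 3, the library nearest to S2, 23 were higher and 80 lower. Leukocyte markers differed between the segments, with a median sum of 1337 RPKM in S2 and 207 in S3. C1qb, a complement gene of macrophages, was at most 0.259 in S3 against 84.3 ± 124 in S2 (-4.23, adjusted p = 0.00273). The part of such cells in the differences from S2 was not tested.

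Spp2, a secreted phosphoprotein, was the largest decrease against both neighbours. It was at most 4.54 RPKM in 6 S3 libraries and at 976 in replicate 5, against 362 ± 398 in S2 (-5.63, adjusted p = 2.43e-07) and 1316 ± 1509 in S1 (-6.91, adjusted p = 8.48e-11). Rpp25, an RNase P subunit, was at 0 in 5 libraries and 3.55 in replicate 5, against 80.6 ± 112 in S2 (-4.49, adjusted p = 4.28e-05). Spink1, a trypsin inhibitor, was at most 2.28 in 6 and 20.8 in replicate 5, against 79.5 ± 107 (-4.46, adjusted p = 1.96e-08). Without replicates 5 and 7 the S2 differences were -6.77 for Spp2, -4.80 for Rpp25 and -4.99 for Spink1. With S3 and S2 fitted alone, Spp2 kept its call (adjusted p = 0.00141), and Rpp25 and Spink1 lost theirs (adjusted p = 0.0775 and 0.0848). In these 3 genes the highest S3 value lay in replicate 5, the library that also held podocyte, thick limb and distal markers; its part was not tested.

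Against S1, 107 genes were higher and 101 lower, of which 9 and 16 showed no overlap. Here too overlap was counted among called genes only, without the share over all genes tested, so nothing is read from these numbers. Osgin1, an oxidative stress response gene, ran from 108 to 806 RPKM (median 448) against 86.5 ± 79.2 in S2 and 11.2 ± 27.5 in S1, above S1 by 7.10 (adjusted p = 4.66e-08) with no overlap. Psph, the last enzyme of serine synthesis, was at most 7.30 against 154 ± 118 in S1 (-5.97, adjusted p = 0.000209), and Nabp1, a single-strand DNA-binding protein, at most 0.109 against 77.6 ± 57.7 (-5.87, adjusted p = 1.2e-07), both without overlap. The comparisons with S2, S1 and the pool share the 7 S3 libraries, so their counts are set side by side and not read as separate evidence.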

How the data were processed

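The authors deposited 2 RPKM tables of the segments, per RefSeq transcript, made with and without polyadenylation-site data. The sources used here do not give how those data entered. Per the submitters' processing notes, Trimmomatic 0.32, STAR 2.3.0-r192, SAMtools, HOMER and build rn5 were used. Per the labels' protocols, reverse transcription used a method for single cells, and reads were 50 nt from both ends. Groups follow the titles. The table with such data was used, with its 17974 entries reduced to 17144 symbols (for 503 with several transcripts, that with the highest mean); the other table was an alternative. Some results are not reported here. Near copies (Cyp2d, Cyp4a, Slc22a, Ugt1a) may share reads.

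Values were taken as log2(RPKM + 1), and fold differences on this scale understate those of low genes. Genes at 1 RPKM or more in at least 4 libraries entered a trended, two-sided moderated test of limma 3.58.1 (R 4.3.3) over all libraries of the 14 segments, with Benjamini-Hochberg adjustment over 11078 genes. S3 was set against the unweighted mean of 13 segment means, S2 and S1. In this fit the residual variance of each gene was shared by all 14 segments. The code was tested on simulated data. Plots were drawn with matplotlib 3.10.9, and tables made with pandas 2.3.3, numpy 2.4.6 and Python 3.11.15.

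Members and the 28 gene lists were chosen with earlier results of these data known. Genes named were the 3 markers, the strict set, the 10 largest called differences in each direction against the pool, the 4 largest called members of each list (or the 2 most abundant) and the 5 largest called each way against S2 and S1; other members were chosen after their values were seen, and their list calls were checked in the same fits. Alternatives were another pseudocount (0.1), no filter, quantile normalization, the other table, a replicate block, leaving out shallow libraries or single replicates, a covariate, all transcripts, and fits of fewer groups. Leaving out S3 replicates 5 and 7 together, and adjusting the largest p-value, were added after seeing the data.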

Additional observations from a re-analysis of the deposited data

Results flagged for a closer look

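In 29 of 129 named genes, the highest or lowest of the 7 S3 libraries lay further from its neighbour than Dixon's 95% limit for 7 samples allows, on log2(RPKM + 1). The chance rate of about 1 in 20 holds for independent, normally distributed values. Many values here lie near 0 and genes of the same library are not independent, so no excess is read from the 29. Some flagged values were under 1 RPKM, such as 0.711 of Bsnd. Of the 29 genes, 12 were flagged in replicate 7 and 9 in replicate 5, the libraries described as standing apart.

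Replicate 7 was lowest for genes of the proximal tubule, with 109 RPKM of Ggt1 (1139 to 4968 in the other 6), 0 of Tmem27 (94.1 to 1354), 1.80 of Glyat (316 to 2827), 5.54 of Gsta2 (103 to 481), 0 of Pck1 (97.3 to 493) and 22.2 of Agxt2 (262 to 775). It was highest for Efhd1 (193, others at most 8.24), Cd24 (1225, at most 38.0), Egr1 (39.4, at most 1.56), Ier3 (335, at most 4.19), Bsnd (0.711, at most 0.148) and Myh11 (16.5, at most 0.146). Replicate 5 was highest for the early proximal genes Spp2 (976, at most 4.54), Slc7a7 (354, at most 0.164), Spink1 (20.8, at most 2.28) and Rpp25 (3.55, at most 0.0327). It was also highest for Slc12a3 (65.8, at most 0.0108) and Cldn19 (14.0, at most 1.08) of the distal nephron, Atp6v1b1 (19.2, at most 1.06) of intercalated cells, and Wt1 (16.6, at most 0.189) and Nphs1 (4.14, at most 0.163) of podocytes.

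Replicate 1 was highest for Mal2 (1.34), Gata3 (0.395), Atp6v1g3 (5.73) and Pdgfra (8.03), replicate 4 for Aqp3 (0.671) and Aqp6 (0.812), and replicate 6 for Apoh (104) and Hspb1 (18.4).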

How the results depend on the processing

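Of the counts of called genes, that of 405 above the pool of 13 segments stayed within 1.5 times under each alternative run (332 to 428 on leaving out 1 S3 or inner medullary thin limb library). The 222 below it became 512 without libraries under 2500 genes, 136 without S3 replicates 5 and 7, 61 with the other libraries as 1 group, 131 to 221 on leaving out 1 S3 library (131 without replicate 2, 145 without replicate 1) and 204 to 232 on leaving out 1 inner medullary thin limb library. Against S2, the 25 higher genes became 40 after quantile normalization, 46 without replicates 5 and 7, 3 with both segments fitted alone and 15 to 35 on leaving out 1 library, and the 73 lower became 7 fitted alone and 58 to 80. Against S1, the 107 higher and 101 lower became 33 and 29 fitted alone, and 82 to 130 and 82 to 112 on leaving out 1 library. Fits of S3 with 1 neighbour tested fewer genes (6210 with S2, 5789 with S1). The strict set of 20 became 33 after quantile normalization, 39 without replicates 5 and 7, 13 with the largest p-value adjusted and 12 to 27 on leaving out 1 library. The causes of these shifts were not tested. No named difference reversed; 20 differences from the pool lost the call with the other libraries as 1 group, and 5 of 10 from S2, those of Gc, Cacng5, Cyp2d1, Rpp25 and Spink1, with S3 and S2 fitted alone.

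Replicate numbers were not used as pairs in the main fit. Over 87 same-numbered pairs of an S3 and another library the residuals correlated at -0.183 to 0.131 (3 over 0.1). Pairs of unlike number were not computed beside them, so whether equal numbers share a rat was not tested. With the replicate number as a block, 402 genes were higher and 248 lower than the pool, 23 and 71 than S2, 109 and 102 than S1, and 19 met the strict rule.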
